A study of Mus musculus with 12 samples.

Results

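The integrin and laminin genes were followed across all libraries of the series. They were taken from the protein-coding rows of the deposited count table by gene name: integrin alpha chains (names beginning Itga), integrin beta chains (Itgb) and laminin alpha, beta and gamma chains (Lama, Lamb, Lamc). The rule found 37 genes among 54447 rows, of which 21969 were protein-coding. They were 18 integrin alpha, 8 integrin beta, 5 laminin alpha, 3 laminin beta and 3 laminin gamma chains.

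Integrins are cell surface receptors made of 1 alpha and 1 beta chain, and each pairing binds its own set of ligands in the matrix or on other cells. Laminins are secreted trimers of 1 alpha, 1 beta and 1 gamma chain and are the main cell-binding proteins of basement membranes, where several integrins recognise mainly the alpha chain. Fibroblasts are best known for fibronectin and collagen receptors, whereas the hemidesmosome receptor of epithelial cells is typical of basal epithelium.

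RNA was sequenced from mouse embryonic fibroblasts (MEFs in the labels, NIH3T3 cells in the study's methods) that carried 1 of 2 lentiviral constructs under a doxycycline-inducible (Tet-on) promoter. N-VEGF cells expressed the N-terminal part of a long VEGF-A form, and NLS-N-VEGF cells expressed this part fused to a nuclear localization sequence. Each population was sampled without and with doxycycline (dox), which gave 4 groups of 3 libraries: NLS-N-VEGF, NLS-N-VEGF dox, N-VEGF and N-VEGF dox. Every group held libraries whose names end in 1_120519, 2_120519 and 2_290419, so that 8 libraries shared the suffix _120519 and 4 the suffix _290419. The suffix has the form of a date, but the labels do not say what it stands for. The cells were puromycin-selected pools rather than clones, and all 12 libraries came from cells that carried a construct, so dox itself and the induced protein cannot be told apart. Nothing in the labels says that libraries of a group came from separate cultures, so p-values measure only the spread between these libraries.

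Total counts lay between 13549331 and 18982127 per library, and 3 counts, taken as the floor, corresponded to 0.158 to 0.221 counts per 1000000 counts of a library (CPM). The members took 0.253% to 0.299% of all counts. The row of the construct insert held 5 to 12 counts without dox and 35 to 268 with dox, and with dox it reached 2.57 to 8.08 CPM in _120519 libraries and 10.2 to 17.9 CPM in _290419 libraries. In libraries 1_120519, 2_120519 and 2_290419 it held 2.57, 2.58 and 10.2 CPM in induced NLS-N-VEGF and 7.56, 8.08 and 17.9 CPM in induced N-VEGF cells. Fibroblast markers summed to 11270 to 14250 CPM in all libraries. Of 6 endothelial markers 5 had a mean under 1 CPM, as did 4 of 6 epithelial, 5 of 7 leukocyte and 6 of 6 skeletal muscle markers. Library 1_120519 of N-VEGF cells stood apart from its group, with the fewest genes detected (19976) and a larger difference from library 2_120519 (chi-square per degree of freedom 23.9) than those of the other groups (1.68 to 4.59).

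Most of the members were measurable in these fibroblasts, but only a few chains were abundant. With the filter on low counts, 27 members were tested, 20 integrin and 7 laminin chains. The 10 left untested were Itga2, Itga4, Itgad, Itgam, Itgax, Itgb6, Lama1, Lama2, Lamb3 and Lamc3. Itgad, Itgam and Itgax, alpha chains of leukocytes, and Itgb6 and Lama1, chains best known from epithelium, did not exceed 3 counts in any of the 12 libraries. Itgam also shares 68.7% of its exon bases with another gene on the same strand. Levels are compared between genes below as CPM per kilobase of exon, the mean over 12 libraries.

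Among the beta chains, Itgb1 (ENSMUSG00000025809, chromosome 8, 128685654 to 128733200), the common partner of most alpha chains, had 221 ± 10.6 CPM per kb (SD, n = 12). Itgb5, which pairs with the alpha v chain in a vitronectin receptor, followed at 22.7 ± 2.101 CPM per kb, and Itgb7, known from lymphocyte homing receptors, at 6.73 ± 2.73 CPM per kb. The ranges of Itgb1, Itgb5 and Itgb7 did not overlap, whereas Itgb7 overlapped Itgb3, Itgb3 overlapped Itgb4 and Itgb4 overlapped Itgb2. Itgb1 made up 82.4% to 86.9% of the summed beta chain level in every library.

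Among the alpha chains, Itga5 (ENSMUSG00000000555, chromosome 15, 103344286 to 103366763), the fibronectin receptor chain, had 62.8 ± 2.91 CPM per kb. Itga6, a laminin receptor chain, had 19.04 ± 2.44 CPM per kb and Itgav, the alpha chain of the vitronectin receptors, 16.9 ± 2.27 CPM per kb, with overlapping ranges. Itga3, which also binds laminin, came next at 9.15 ± 0.60 CPM per kb and lay below all of these in every library. From Itga10 through Itga1, every neighbouring pair of alpha chains overlapped. Itga5 alone made up 53.2% to 58.9% of the summed alpha chain level.

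For laminin the beta and gamma chains far exceeded the alpha chains. Lamb1 (ENSMUSG00000002900, chromosome 12, 31265234 to 31329644) had 57.8 ± 6.12 CPM per kb, Lamc1 (ENSMUSG00000026478, chromosome 1, 153218922 to 153332786) 30.5 ± 4.53 and Lamb2 (ENSMUSG00000052911, chromosome 9, 108479736 to 108490530) 15.8 ± 2.50 CPM per kb, with no overlap between neighbours. The most abundant alpha chain, Lama4, had 0.82 ± 0.59 CPM per kb, and Lama5 and Lama3 had 0.0774 and 0.0740 CPM per kb. All 5 alpha chains together came to 0.501 to 2.004 CPM per kb, against 66.6 to 80.6 for the beta chains and 25.1 to 37.9 for the gamma chains. The plot of levels per length shows this gap beside the integrin chains.

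**Figure D1:**
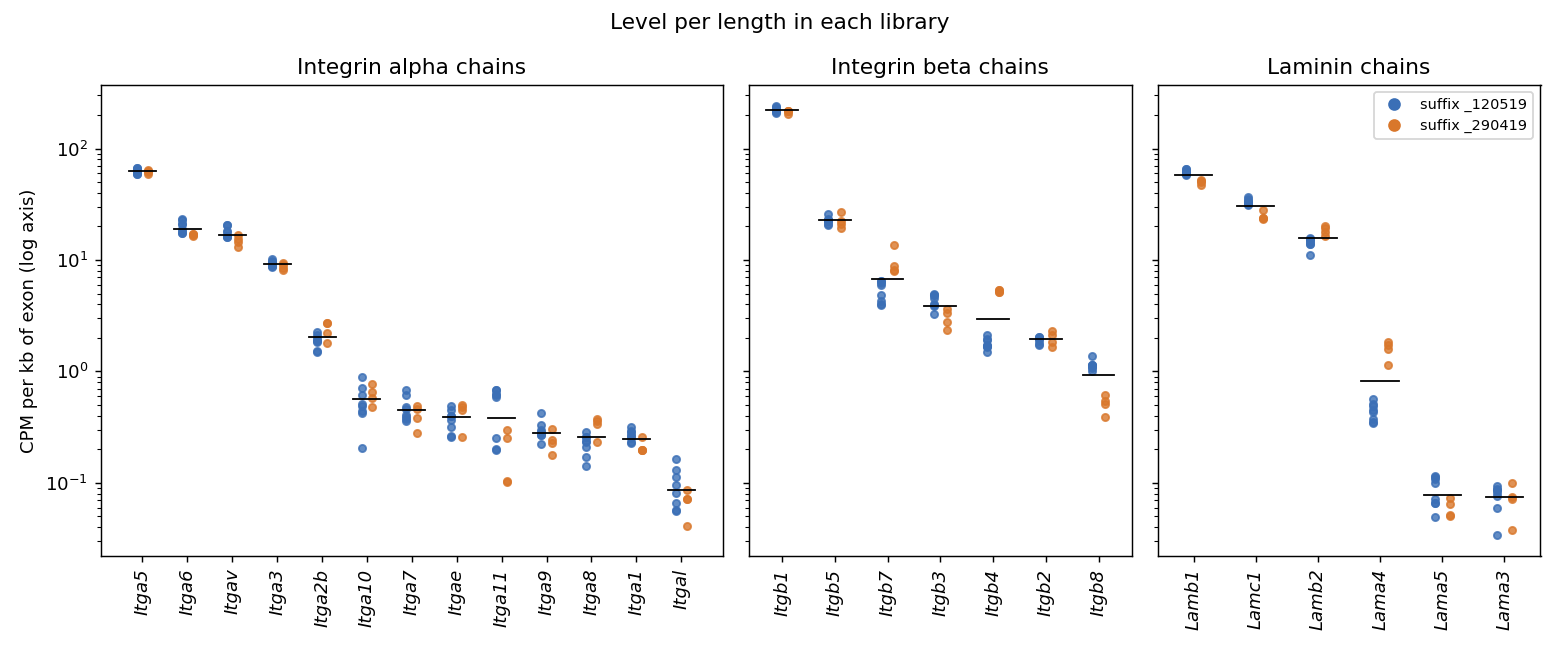
Level of 26 tested members in each library, in CPM per kb of exon on a log axis, with blue points for _120519 libraries, orange points for _290419 libraries and a black line at the mean of all 12. Itgb1, Itga5 and Lamb1 lead at 221, 62.8 and 57.8 CPM per kb, and the laminin alpha chains lie at or below 1.85 CPM per kb in every library.

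The suffix of the library name separated the members far more than dox or construct did. In a model of group and suffix, 15 of 27 tested members differed between _290419 and _120519 libraries (edgeR quasi-likelihood test, adjusted p under 0.05), against 45.6% of all 13608 genes tested. Of these, 7 were higher in _290419 (22.2% of all genes were) and 8 were lower (23.5%). At least 2-fold changes were found in Lama4 and Itgb4, which were higher (3.69% of all genes), and in Itgb8 and Itga11, which were lower (1.29%). The _290419 and _120519 values did not overlap in 8 members, Lama4, Itgb4, Itgb7, Lamb2, Itgb8, Lamc1, Lamb1 and Itga6, against 28% of all genes. The shares of members that passed (55.6%) and that did not overlap (29.6%) were thus close to those of all genes. The 2-fold shares, 7.41% of the tested members in each direction, were larger but rest on 2 members each. The median of the absolute log2 fold change was 0.32 over the tested members and 0.22 over all genes.

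Long genes were on the whole lower in _290419, with a median log2 fold change of -0.09 in the longest 3400 genes and 0.10 in the shortest 3402. The tested members, whose exons add up to 2770 to 18599 bases, had a median of -0.09, against -0.03 for all genes within that range. The part of length in the differences of the members was not tested.

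**Figure D2:**
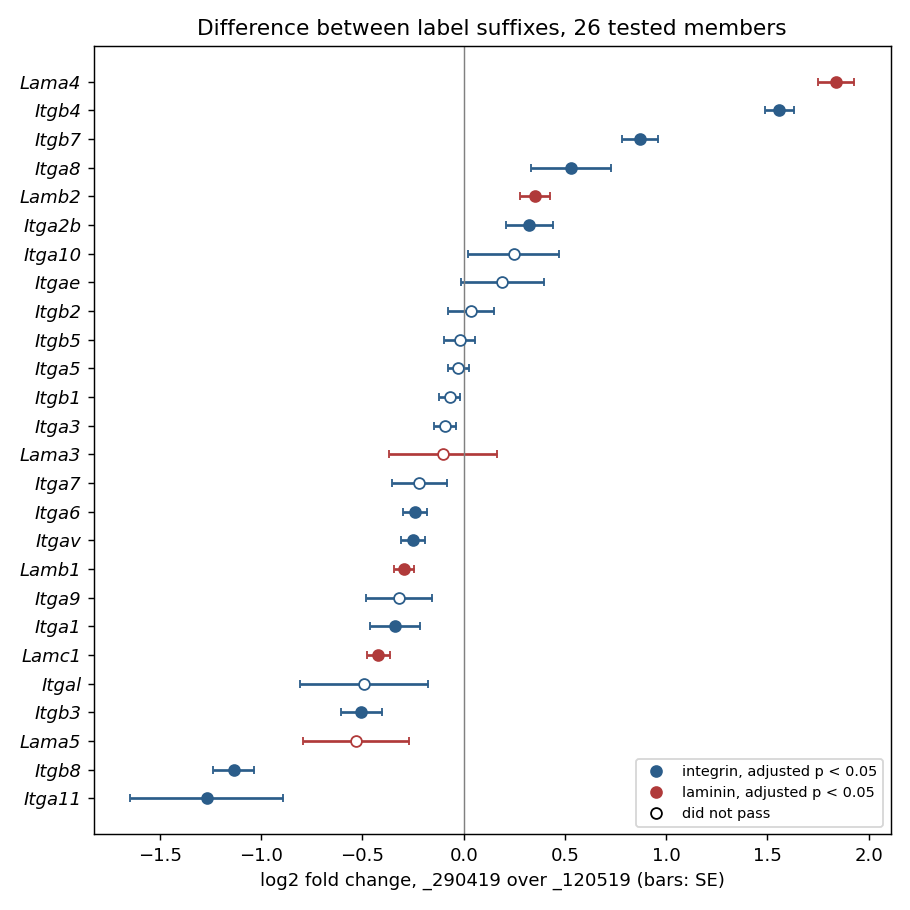
Log2 fold change between _290419 and _120519 libraries for 26 tested members (x axis; bars are SE), with integrins in blue, laminins in red and open circles for members that did not pass an adjusted p under 0.05. Lama4 and Itgb4 lie farthest to the right at 1.84 and 1.56, and Itga11 and Itgb8 farthest to the left at -1.27 and -1.13.

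Lama4 (ENSMUSG00000019846, chromosome 10, 38965515 to 39110188), the alpha chain of mesenchymal and vascular laminins, differed most. Uninduced NLS-N-VEGF cells (no dox) held 5.46, 5.22 and 22.3 CPM in libraries 1_120519, 2_120519 and 2_290419, and induced ones (dox) 6.16, 6.85 and 20.7 CPM. Uninduced N-VEGF cells held 4.52, 5.91 and 19.3 CPM and induced ones 4.25, 4.12 and 13.9 CPM. The _290419 library was the highest of each group, and the lowest of these 4 libraries was above all 8 others. The log2 fold change was 1.84 (SE 0.09 and adjusted p 2.12e-09, edgeR). Within the groups the log2 ratio lay between 1.60 and 1.96.

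Itgb4 (ENSMUSG00000020758, chromosome 11, 115974709 to 116008412), the beta chain that pairs with alpha 6 in hemidesmosomes, behaved likewise. Uninduced NLS-N-VEGF cells held 12.2, 10.6 and 37.5 CPM and induced ones 13.8, 13.3 and 36.5 CPM, in the same order of libraries. For N-VEGF cells the values were 15.02, 11.95 and 37.5 CPM uninduced and 11.6, 11.8 and 36.0 CPM induced. All 4 _290419 libraries were within 36.0 to 37.5 CPM, whatever the construct or dox, and none of the others exceeded 15.02 CPM. Its log2 fold change was 1.56 (SE 0.07 and adjusted p 1.42e-09, edgeR). An antisense gene covers 7.66% of the Itgb4 exon bases. The strand setting of the counts is not given, so how reads in these bases were counted is not known. Its usual partner Itga6 went the other way, as described below.

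Itgb8 (ENSMUSG00000025321, chromosome 12, 119158022 to 119238802), the beta chain of a receptor that binds latent TGF-beta together with the alpha v chain, was lower in _290419. NLS-N-VEGF cells held 12.4, 12.5 and 5.64 CPM uninduced and 12.5, 15.1 and 6.75 CPM induced. N-VEGF cells held 11.1, 12.6 and 6.06 CPM uninduced and 11.998, 11.9 and 4.29 CPM induced. Every _290419 library was below every _120519 library, with a log2 fold change of -1.13 (SE 0.10 and adjusted p 5.58e-07, edgeR).

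Itga11 (ENSMUSG00000032243, chromosome 9, 62677826 to 62783982), a collagen receptor chain of fibroblasts, was less even. NLS-N-VEGF cells held 3.51, 3.02 and 1.29 CPM uninduced and 1.02, 1.03 and 1.54 CPM induced. The values of N-VEGF cells were 3.14, 3.20 and 0.524 CPM uninduced and 3.50, 1.30 and 0.536 CPM induced. The _290419 library was the lowest in 3 groups and the highest in NLS-N-VEGF dox, so that the suffixes overlapped. The log2 fold change of -1.27 (SE 0.38 and adjusted p 0.0118, edgeR) came from 385 counts in all 12 libraries, and the adjusted p rose to 0.0833 at most when single libraries were left out. Without the _290419 library of N-VEGF cells or that of N-VEGF dox cells, Itga11 no longer passed, with log2 fold changes of -0.89 and -1.07. Without that of NLS-N-VEGF dox cells the value was -1.94.

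**Figure D3:**
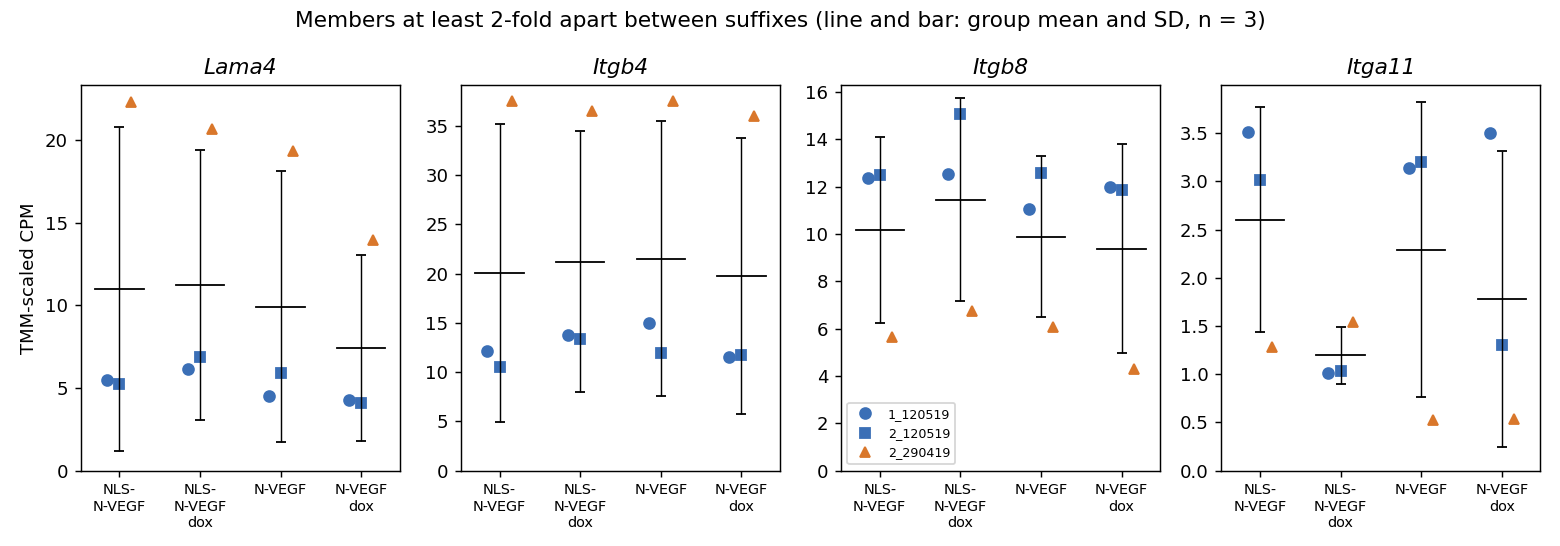
TMM-scaled CPM of Lama4, Itgb4, Itgb8 and Itga11 in each library by group, with circles for 1_120519, squares for 2_120519 and triangles for 2_290419, a line at the group mean and bars of SD (n = 3). The triangles sit above the other points for Lama4 and Itgb4 in all 4 groups and below them for Itgb8, while for Itga11 the NLS-N-VEGF dox group is the exception.

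Smaller changes with the suffix divided both receptors and ligands. Among the receptor chains, Itgb7 was higher in _290419 with a log2 fold change of 0.87 (SE 0.09 and adjusted p 1.57e-06, edgeR). Itga8, a receptor chain for nephronectin, and Itga2b, the platelet alpha chain, were higher by log2 fold changes of 0.53 and 0.32 (edgeR adjusted p 0.0365 and 0.0321). Lower were Itgb3, a vitronectin receptor beta chain, at -0.51, Itga1, a collagen receptor chain, at -0.34, Itgav at -0.25 and Itga6 at -0.24. The calls of Itga1, Itga2b and Itga8 were lost in 6, 9 and 8 of 17 alternatives.

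The abundant chains Itgb1, Itga5, Itgb5 and Itga3 did not pass. Their log2 fold changes were -0.07 (SE 0.05), -0.03 (SE 0.05), -0.02 (SE 0.08) and -0.09 (SE 0.05). Itgb1 held 918, 895 and 839.5 CPM in uninduced and 978, 970 and 893 CPM in induced NLS-N-VEGF cells, and 863, 858 and 879.8 CPM in uninduced and 919.9, 933 and 879.98 CPM in induced N-VEGF cells. Its 12 values thus lay within 839.5 to 978 CPM, and those of the suffixes overlapped. Itga5 held 293, 293 and 316 CPM in uninduced and 331, 328 and 313 CPM in induced NLS-N-VEGF cells, and 324, 319.9 and 291 CPM in uninduced and 306, 299 and 304 CPM in induced N-VEGF cells. Itgb5 held 79.2, 75.2 and 75.5 CPM in uninduced and 83.4, 72.8 and 95.1 CPM in induced NLS-N-VEGF cells, and 92.9, 81.4 and 69.6 CPM in uninduced and 81.2, 80.2 and 79.2 CPM in induced N-VEGF cells. For these receptor chains neither suffix held the higher values throughout.

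The other tested members that did not pass were Itga7, Itga9, Itga10, Itgae, Itgal, Itgb2, Lama3 and Lama5. Their log2 fold changes lay between -0.53 for Lama5 and 0.25 for Itga10, and their SE between 0.11 for Itgb2 and 0.32 for Itgal. Itgb2, the beta chain of the leukocyte integrins, had 5.02 to 7.07 CPM, whereas its alpha partner Itgal had at most 1.07 CPM. Of Itga10, a cartilage collagen receptor chain, 33.5% of the exon bases are shared with another gene on the same strand, so its 1.07 to 4.64 CPM are uncertain.

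Among the laminin chains, the usual beta and gamma chains fell, and the less abundant beta chain Lamb2 rose. Lamb1 held 645, 613 and 519 CPM in uninduced and 649, 623 and 507 CPM in induced NLS-N-VEGF cells, and 583, 608 and 498 CPM in uninduced and 591, 578 and 469 CPM in induced N-VEGF cells. The third value of each group, that of the _290419 library, was the lowest, with a log2 fold change of -0.30 (SE 0.05 and adjusted p 0.000159, edgeR). Lamc1 held 263, 258 and 195 CPM in uninduced and 274, 279 and 232 CPM in induced NLS-N-VEGF cells, and 262, 273 and 198 CPM in uninduced and 303, 289.9 and 198 CPM in induced N-VEGF cells, with a log2 fold change of -0.42 (SE 0.06 and adjusted p 1.77e-05, edgeR). Neither chain overlapped between the suffixes. Lamb2, the beta chain of the neuromuscular and vascular laminins, held 94.7, 91.5 and 108 CPM in uninduced and 85.3, 83.9 and 124 CPM in induced NLS-N-VEGF cells, and 67.4, 93.3 and 99.4 CPM in uninduced and 96.9, 88.4 and 117 CPM in induced N-VEGF cells. It rose by a log2 fold change of 0.35 (SE 0.07 and adjusted p 0.00108, edgeR). Lamb3, a beta chain of epithelium, was under the filter on low counts and held 0.235 ± 0.133 CPM (SD, n = 8) in _120519 and 0.528 ± 0.175 CPM (SD, n = 4) in _290419 libraries, with ranges that overlapped. It passed as higher in _290419 with no filter beyond 1 count, and when library 1_120519 or 2_120519 of uninduced NLS-N-VEGF cells was left out.

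The makeup of the laminin transcripts shifted accordingly. Lamb1 made up 78.9% to 84.1% of the summed beta chain level per length in _120519 libraries and 71.0% to 75.4% in _290419 libraries. The summed alpha chains came to 1.46% to 2.03% of the summed gamma chains in _120519 libraries and to 5.01% to 7.99% in _290419 libraries. Lama4 made up 62.3% to 83.8% of the alpha chain level in _120519 libraries and 88.1% to 94.5% in _290419 libraries. None of these shares overlapped between the suffixes, and they restate the differences of the single chains given above.

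The promoters of Lamb1 and Lamb2 are shown because the beta chains differed in opposite directions between the suffixes, and those of Itgb7 and Itgav because they are discussed with dox below. They are from RefSeq, build GRCm38.p6, in the direction of transcription, and were cut where the gene of the GENCODE annotation begins. Capitals mark matches, on either strand, to the searched motifs.
Lamb1, chr12:31265043-31265233, plus strand: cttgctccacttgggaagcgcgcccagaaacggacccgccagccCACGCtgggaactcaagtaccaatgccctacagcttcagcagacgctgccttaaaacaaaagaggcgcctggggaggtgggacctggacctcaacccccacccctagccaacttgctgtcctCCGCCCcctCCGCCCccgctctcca
Lamb2, chr9:108479612-108479735, plus strand: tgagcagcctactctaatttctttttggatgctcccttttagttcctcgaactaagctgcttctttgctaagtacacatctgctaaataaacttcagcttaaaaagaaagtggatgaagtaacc
Itgb7, chr15:102231945-102232185, minus strand: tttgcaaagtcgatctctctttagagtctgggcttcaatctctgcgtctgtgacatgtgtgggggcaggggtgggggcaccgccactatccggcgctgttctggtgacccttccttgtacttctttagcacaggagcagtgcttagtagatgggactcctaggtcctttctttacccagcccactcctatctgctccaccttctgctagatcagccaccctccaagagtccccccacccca
Itgav, chr2:83724147-83724396, plus strand: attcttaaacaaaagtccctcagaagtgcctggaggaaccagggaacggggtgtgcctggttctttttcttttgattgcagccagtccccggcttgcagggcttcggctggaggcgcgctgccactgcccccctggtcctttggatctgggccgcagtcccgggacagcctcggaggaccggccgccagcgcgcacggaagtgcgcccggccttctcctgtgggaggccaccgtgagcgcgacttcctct

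The motifs were searched in the 250 bases before each RefSeq start, on both strands, and matches to different motifs could overlap. They were the hypoxia factor cores ACGTG and GCGTG, held by 16.6% and 28.2% of all 32851 promoters, the AP-1 site TGANTCA (6.75%), the SP and KLF site GGGCGG (32.7%) and the TEAD site GGAATG (12.6%). Promoters were matched for 23 of the 37 members, in 26 entries. In these, GGGCGG occurred in 8 members, GCGTG in 6, GGAATG in 3 and ACGTG and TGANTCA in 1 each. Lamb1 held 1 GCGTG and 2 GGGCGG, and the windows of Lamb2, Itgb7 and Itgav held none of these letters. GC content was 62.0% before Lamb1, 43.6% before Lamb2, 56.0% before Itgb7 and 64.4% before Itgav.

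Markers of other cell types were compared between the suffixes, because Itgb4 and Itgb7 are better known from epithelium and leukocytes. The 6 epithelial markers summed to 2.03 to 3.32 CPM in _120519 and 3.26 to 3.79 CPM in _290419 libraries, with Krt5 at 0 in all 12 and a log2 fold change of 0.73 in Krt14 (edgeR adjusted p 0.00512). The 7 leukocyte markers summed to 8.98 to 14.0 CPM in _120519 and 10.6 to 12.7 CPM in _290419 libraries, with Cd3e at 0 in all 12. Of these, Cd68 was higher and Csf1r lower in _290419, with log2 fold changes of 0.83 and -0.43 (adjusted p 6.06e-05 and 0.0144, edgeR). The 6 skeletal muscle markers, with Myod1 and Myog at 0, summed to 0.437 to 0.692 CPM and 0.888 to 1.74 CPM, respectively. The 6 endothelial markers summed to 2.93 to 5.01 CPM and 3.15 to 4.14 CPM, with a log2 fold change of -1.30 in Tie1 (edgeR adjusted p 0.0208). Of the 11 fibroblast markers, 4 were higher and 4 lower in _290419. The largest log2 fold changes were 5.26 in Lum, whose mean was 0.407 CPM, -1.32 in Pdgfra and -1.22 in Col3a1. Their adjusted p were 7.68e-07, 3.31e-08 and 2.42e-06 (edgeR). The part of all these markers in the integrin and laminin differences was not tested, and in bulk RNA fewer cells of a type and less RNA per cell cannot be told apart.

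Genes around the integrins and laminins were counted against the 22.2% of all genes that were higher and the 23.5% that were lower in _290419 (45.6% in all). Of 24 tested integrin adapters, 5 were higher and 10 lower in _290419, led by Parvg at a log2 fold change of 1.22 and Nedd9 at -0.60. Of 14 tested basement membrane genes other than laminins, only Nid1, the laminin-binding nidogen, was higher (1.02), and 9 were lower, among them Npnt (-0.65), Col18a1 (-0.65) and Col4a1 (-0.61). The median of this list was -0.41, against 0.01 for all genes. Of 16 tested integrin ligands outside the basement membrane, 2 were higher, Thbs1 at 1.88 and Ctgf at 1.08, and 7 were lower, led by Fn1 at -0.55 and Tgfb3 at -0.53.

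The dox effect asks which members change when the construct is induced. The fit used first held 1 mean per group and no term for the suffix, so differences between suffixes entered its spread. No tested member passed in NLS-N-VEGF cells (edgeR quasi-likelihood test; 0.022% of all genes passed), in N-VEGF cells (0.0367%) or averaged over both populations (0.0588%). At an unadjusted p under 0.05 there were 4, 0 and 2 members in these contrasts (14.8%, 0% and 7.41% of the tested members, against 2.34%, 1.48% and 3.11% of all genes). The DESeq2 Wald test called 0 members in each, against 12 of 11495, 8 of 13606 and 21 of 12286 genes. The median log2 fold change of the averaged effect was 0.04 over the tested members and 0.00 over all genes.

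When libraries with the same number and suffix were compared with each other (the replicate block), Itgb7 passed in the averaged effect, and no other member did (0.566% of all genes passed). In the single populations 0 members passed with the block, where 0.125% of all genes passed in NLS-N-VEGF and 0.11% in N-VEGF cells. An unadjusted p under 0.05 was held by 7 and 6 members there (25.9% and 22.2%), against 7.27% and 5.4% of all genes. Itgb7 (ENSMUSG00000001281, chromosome 15, 102215995 to 102231944) held 10.9, 11.1 and 22.6 CPM in the uninduced NLS-N-VEGF libraries 1_120519, 2_120519 and 2_290419 and 17.8, 17.3 and 24.5 CPM in the induced ones. N-VEGF cells held 13.3, 11.9 and 22.1 CPM uninduced and 16.5, 17.8 and 37.8 CPM induced. It was higher with dox in all 6 same-labelled pairs, but the groups overlapped because the _290419 libraries lay above the others. The averaged log2 fold change was 0.51 (SE 0.26 and adjusted p 1.0, edgeR) without the block and 0.52 (SE 0.09 and adjusted p 0.00759, edgeR) with it. The fit without the block holds no suffix term, so leaving out a _290419 library unbalances suffix and dox and moves its value either way. Without library 2_290419 of N-VEGF dox or NLS-N-VEGF dox cells the value was 0.27 or 0.42. Without that of uninduced N-VEGF or NLS-N-VEGF cells it was 0.66 or 0.72. The _120519 libraries alone gave 0.55 (adjusted p 0.00933, edgeR).

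Itgb7, Itga6 and Itgav stand on the list of raised genes that the study drew from these same libraries, so their direction with dox is not independent evidence. The study's criteria were at least 2-fold, an adjusted p under 0.05 and no induction in N-VEGF cells with dox. Here their log2 fold changes in NLS-N-VEGF cells were 0.43, 0.29 and 0.31 without the block, all under 2-fold. In N-VEGF cells that of Itgb7 was 0.60. Itga6 (ENSMUSG00000027111, chromosome 2, 71745616 to 71858416) held 159, 158 and 151 CPM in uninduced NLS-N-VEGF cells and 205, 212 and 155 CPM in induced ones. The N-VEGF values were 165, 172 and 154 CPM uninduced and 190, 191 and 150 CPM induced. The 4 pairs of suffix _120519 were all higher with dox, whereas the 4 libraries of suffix _290419 stayed within 150 to 155 CPM.

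Itgav (ENSMUSG00000027087, chromosome 2, 83724397 to 83806916) held 178, 172 and 156 CPM in uninduced NLS-N-VEGF cells and 222, 224 and 181 CPM in induced ones. The N-VEGF values were 176, 174 and 166 CPM uninduced and 197, 192 and 141 CPM induced. It was higher with dox in 5 of 6 pairs, and the _290419 pair of N-VEGF cells was the exception. With the block the averaged log2 fold changes of Itga6 and Itgav were 0.19 (SE 0.06 and adjusted p 0.187, edgeR) and 0.17 (SE 0.06 and adjusted p 0.299, edgeR). An antisense gene covers 5.9% of the Itgav exon bases. The study names Itgav among its raised genes and states that trends of the genes it mentions were also checked by separate real-time PCR.

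**Figure D4:**
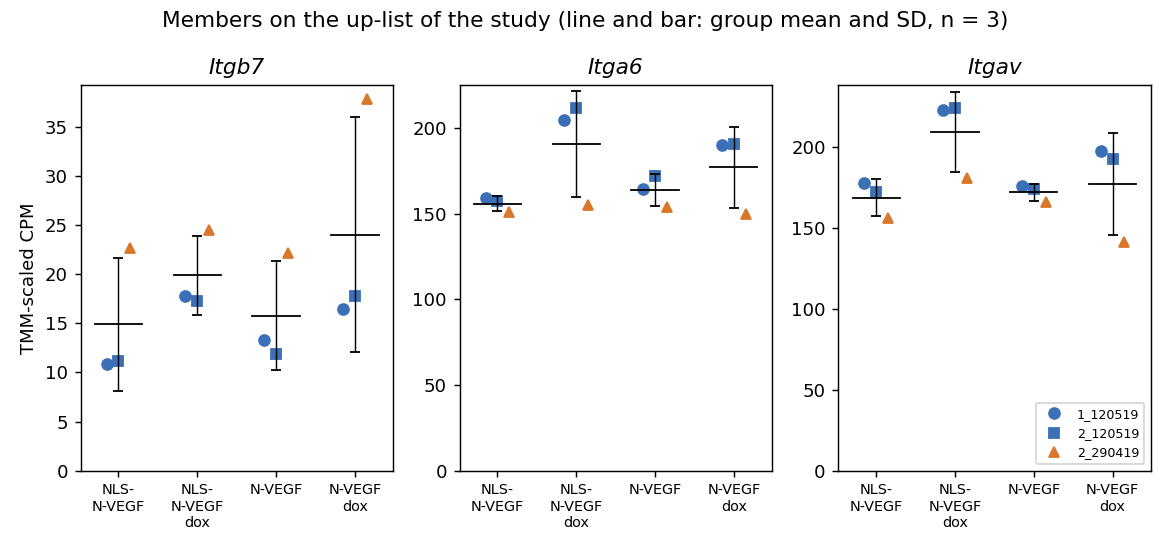
TMM-scaled CPM of Itgb7, Itga6 and Itgav in each library by group, with circles for 1_120519, squares for 2_120519 and triangles for 2_290419, a line at the group mean and bars of SD (n = 3). With dox the circles and squares are raised for all 3 genes, whereas the triangles of Itga6 stay between 150 and 155 CPM.

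Within the _120519 libraries alone, these genes passed in NLS-N-VEGF cells, where 4 of 27 tested members passed in all, against 0.814% of all genes. The log2 fold changes were 0.67 (SE 0.11) for Itgb7, 0.39 (SE 0.07) for Itga6 and 0.34 (SE 0.07) for Itgav, with edgeR adjusted p of 0.0226, 0.0274 and 0.0460. In the averaged effect Itgb7, Itga6 and Itgav passed (1.01% of all genes). No member passed in N-VEGF cells within these libraries, where only 16 of all 13387 genes did. The log2 fold change of Itgb7 there was 0.43 (SE 0.11 and adjusted p 0.336, edgeR). The DESeq2 Wald test on all libraries called none of them.

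A model with a separate dox effect for each suffix, chosen after seeing the data, tested whether the dox effect differed between the suffixes. No member passed for the difference (0 of 27, against 0% of all genes), and 4 members (14.8%) had an unadjusted p under 0.05, against 6.81% of all genes. Not passing does not show that the dox effects were alike. For Itga6 the dox effect was 0.29 (SE 0.05) in _120519 and 0.00 (SE 0.07) in _290419 libraries, and the difference of -0.29 (SE 0.09) had an edgeR adjusted p of 0.728. For Itgav the values were 0.25 (SE 0.05) and -0.01 (SE 0.08), with a difference of -0.26 (SE 0.09) and an edgeR adjusted p of 0.728. For Itgb7 they were 0.56 (SE 0.11) and 0.46 (SE 0.14), with a difference of -0.10 (SE 0.18). In this model only Itga6 passed in _120519 libraries (0.25% of all genes) and no member in _290419 libraries (0.0735%). At an unadjusted p under 0.05 there were 6 members (22.2%) for either suffix, against 14.1% of all genes in _120519 and 4.36% in _290419 libraries.

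Of the remaining members, Itga7, a muscle laminin receptor chain, was higher with dox in all 6 pairs. NLS-N-VEGF cells held 3.05, 2.89 and 3.07 CPM uninduced and 4.93, 5.52 and 3.73 CPM induced. N-VEGF cells held 3.14, 3.27 and 2.27 CPM uninduced and 3.87, 3.69 and 3.95 CPM induced. Its averaged log2 fold change with the block was 0.53 (SE 0.13 and adjusted p 0.107, edgeR). Itgb1 and Lamc1 were also higher in all 6 pairs, as were 5 of 27 tested members in all, against 2.73% of all genes. In the _290419 pair of N-VEGF cells the log2 ratios of Itgb1 and Lamc1 were 0.00, and the averaged log2 fold change of Itgb1 with the block was 0.08 (SE 0.05). Itgal, a leukocyte chain between 0.268 and 1.07 CPM, was the 1 member lower in all 6 pairs, against 2.96% of all genes. None of the tested integrin adapters (24), other basement membrane genes (14) or other integrin ligands (16) passed in the averaged effect, with or without the block. Of the fibroblast markers, Dcn and Pdgfra were lower in the averaged effect with the block, by log2 fold changes of -0.54 and -0.49 (edgeR adjusted p 0.00578 and 0.00419).

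**Figure D5:**
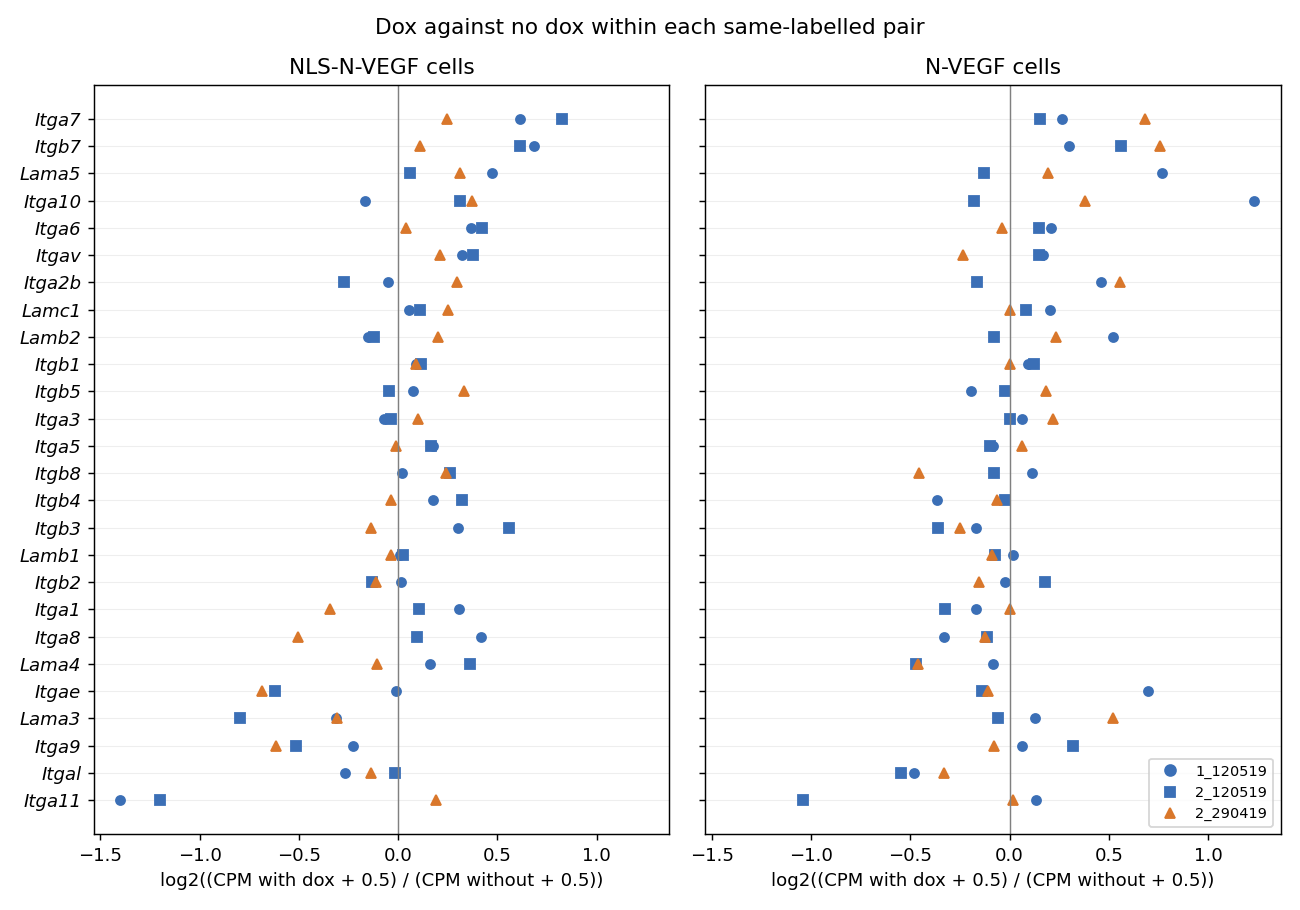
Log2 ratio of CPM with dox to CPM without dox (0.5 added to both) in each same-labelled pair, for NLS-N-VEGF cells at left and N-VEGF cells at right, with circles for 1_120519, squares for 2_120519 and triangles for 2_290419 and members ordered by their averaged effect. Itga7 and Itgb7 lie to the right of 0 in all 6 pairs, and Itga11 spreads most in NLS-N-VEGF cells.

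The populations were compared to see whether the nuclear localization sequence made a difference. The insert row was lower in induced NLS-N-VEGF than in induced N-VEGF cells in 3 of 3 same-labelled pairs (values above), and its part in these comparisons was not tested. No member passed for the difference of the dox effects (0% of all genes), or between the populations with dox (0%) or without it (0%), and 0 members had an unadjusted p under 0.05 in each of these edgeR tests, against 0.852%, 1.18% and 0.603% of all genes. The DESeq2 Wald test called 0 members as well, against 0 of 13606 genes in each contrast. With the replicate block there were again 0 members in each, against 0%, 0.0147% and 0% of all genes. With the block 3, 4 and 1 members had an unadjusted p under 0.05 (11.1%, 14.8% and 3.7%), against 3.41%, 4.56% and 3.67% of all genes. The difference of the dox effects with the block was 0.28 (SE 0.11 and adjusted p 1.0, edgeR) for Itgav, 0.17 (SE 0.11) for Itga6 and -0.10 (SE 0.18) for Itgb7. Also with the block, the log2 fold change of Itgav between induced NLS-N-VEGF and induced N-VEGF cells was 0.25 (SE 0.08 and adjusted p 0.981, edgeR). It did not pass, with the NLS-N-VEGF library higher in 3 of 3 same-labelled pairs. These errors do not show that the populations were alike, and the contrasts share libraries with the dox comparisons above.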

How the data were processed

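RNA sequencing counts of 12 libraries were analysed. The deposited values are unnormalized read counts for each gene. The authors trimmed single reads with Trim Galore, aligned them with TopHat2 2.1.0 to GRCm38 and counted them with HTSeq 0.6.1; the strand setting is not given in the sources used here. Members were matched by gene ID to GENCODE, which gave coordinates and exon lengths. Counts were tested with edgeR 4.0.16 in R 4.3.3 (filterByExpr by group, 13608 genes, TMM scaling, quasi-likelihood F test, two-sided, Benjamini-Hochberg adjustment over all genes). Dox and population contrasts used 1 mean per group, and the suffix contrast was fitted with group and suffix together. SE was derived from the F statistic, and the fit was tested on simulated data. All value columns were matched to labelled libraries.

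Libraries were paired across groups by the labels' number and suffix. Deviations from group means correlated between all 18 same-labelled pairs of libraries (0.35 to 0.80, mean 0.56, 12058 genes). The mean of the 36 other pairs was -0.24. Among these, pairs that shared the suffix _120519 but not the number also correlated (0.17 to 0.63). Pairs of unlike suffix had negative values (-0.72 to -0.34). Deviations within a group of 3 libraries sum to 0, so the negative values and the negative mean follow in part from the centring. By the positive values the pairing followed the suffix, and pairing by number was not shown. The common coefficient of variation was 15.5% with 1 mean per group, 7.86% with the block and 7.93% with suffix as covariate. Dox and population tests without the block thus used the larger spread, which includes the differences between suffixes. The replicate block is given where it changes a call. No pair of replicates agreed within sampling noise (chi-square per degree of freedom at least 1.68). Floors of 3 counts cover counting error only.

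Alternatives were the DESeq2 1.42.0 Wald test, which the authors also used, RLE scaling, 2 other filters, the block, suffix as covariate, _120519 libraries only, libraries numbered 2 only and leaving out each of the 12 libraries. Members named were those past the threshold in any of 7 contrasts in either fit, those on the study's list and the 3 most abundant integrin alpha, integrin beta and laminin chains per length. Itga3, Itga7, Itga9, Itga10, Itgae, Itgal, Itgb2, Lama3, Lama5, Lamb3 and the members described as untested were named after their values were seen. The members and lists were chosen with earlier results of these data known.
1 member is counted in the totals and sums but its values are not reported here.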

Additional observations from a re-analysis of the deposited data

How the results depend on the processing

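Counts of members that passed moved for the dox effects. In NLS-N-VEGF cells 0 members passed, and 4 did with the _120519 libraries only. For the effect averaged over both populations 0 members passed, against 1 (Itgb7) with the replicate block, 1 (Itgb7) with suffix as covariate, 1 (Itgb7) with no filter beyond 1 count, 3 with the _120519 libraries only and 1 (Itga6) for _120519 libraries in the model with a dox by suffix term, which was added after the data were seen. Over all genes, the averaged effect passed in 73 of 13608 with suffix as covariate and in 77 of 31229 with no filter beyond 1 count. In the fit without the block, leaving out any of the 12 libraries left the dox and population counts at 0. The dox fits with the block or with suffix as covariate were not repeated with libraries left out, so the call of Itgb7 was not checked in this way. The replicate block changed no other call. The suffix count of 15 stayed between 12 and 17 with single libraries left out, was 17 without library 1_120519 of N-VEGF cells, and was 13 by the DESeq2 Wald test. The count over all genes, 6207 of 13608, moved as well. It was 4929 to 7200 with single libraries left out, 7200 of 13947 without that N-VEGF library, and 5732 by the DESeq2 Wald test. In 11 of the 15 members that passed, the call held under every alternative run; Itga1, Itga2b, Itga8 and Itga11 were the exceptions. Itga11 was lost in 2 of 16 alternatives and could not be tested with at least 10 counts in every library. No direction reversed. Mean CPM of the 9 most abundant members on the raw library total moved by less than the spread between libraries. Depth limits the members near 1 CPM, such as Itgal, Lama3 and Lama5.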
